A study of Homo sapiens with 6 samples.

Results

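The 6 genes described here, CDKN1A, GADD45A, GADD45B, PLK2, AEN and MDM2, are known targets of the transcription factor p53 that act in growth arrest and its control. They were taken as every probe of a 2-colour array whose single gene symbol in the platform annotation is one of these names. That gave 9 probes for 6 of the 8987 genes named on the array, out of 14080 probes, and all 9 were measured on all 6 arrays. CDKN1A, GADD45B and MDM2 have 2 probes each and the others 1, and probes of 1 gene share their target.

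The RNA came from GM00156, a human cell line of the Coriell repository whose cell type the labels leave out. All treated cells had emetine dihydrochloride hydrate, which blocks the translating ribosome, at 100 µg/ml for 10 h, and untreated cells were incubated alongside. Actinomycin D, a block of transcription, then went into treated and untreated cultures alike at 5 µg/ml. Harvests followed at 0 min, 10 min, 30 min, 1 h and 8 h, and each of the 5 arrays paired treated with untreated RNA of 1 harvest. A sixth array, called self-self, held RNA of treated cells in both channels at 0 min, and its label names no actinomycin D. Every harvest has 1 array, the number of arrays limits the precision, and no label says whether the harvests came from separate cultures. The p-values here therefore measure only the spread between these arrays. The channel in the numerator is not stated, so log2 ratios are called positive or negative without saying which RNA was more abundant.

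p53 is kept low by MDM2, a ubiquitin ligase that is itself a p53 target, so the pair forms a negative feedback loop. CDKN1A encodes p21, which binds cyclin-dependent kinases and holds cells before DNA replication. GADD45A and GADD45B are small stress-inducible proteins that bind the kinase MAP3K4 upstream of p38 and JNK. PLK2 is a polo-like kinase with a role in centriole duplication, and AEN is an exonuclease that promotes cell death. Several of them also have inducers other than p53, such as NF-kB and TGF-beta for GADD45B.

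To show what lies just before a listed start of these genes, the 250 bases upstream were read from the RefSeq promoter table of GRCh38.p14, which holds windows for 5 of the 6 genes. GADD45B, PLK2, AEN and MDM2 are shown because their ratios were positive at every harvest, and CDKN1A because its ratio was not. MDM2 has 4 listed starts and the window of 1 of the 2 inner starts is printed. The CDKN1A and AEN windows lie inside the annotated genes, which begin at chr6:36676463 and chr15:88604683, so sequence before those bases was not searched. The windows are GADD45B at chr19:2475877-2476126 (plus strand), PLK2 at chr5:58460087-58460336 (minus strand), AEN at chr15:88621090-88621339 (plus strand), MDM2 at chr12:68808767-68809016 (plus strand) and CDKN1A at chr6:36678464-36678713 (plus strand). Each is written 5′ to 3′ on the gene's strand, and capitals mark the motif matches described next.
GADD45B: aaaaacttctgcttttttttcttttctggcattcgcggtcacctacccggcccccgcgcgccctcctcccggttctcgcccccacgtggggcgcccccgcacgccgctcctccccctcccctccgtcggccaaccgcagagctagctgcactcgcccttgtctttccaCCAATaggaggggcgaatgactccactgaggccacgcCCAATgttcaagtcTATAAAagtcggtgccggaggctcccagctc
PLK2: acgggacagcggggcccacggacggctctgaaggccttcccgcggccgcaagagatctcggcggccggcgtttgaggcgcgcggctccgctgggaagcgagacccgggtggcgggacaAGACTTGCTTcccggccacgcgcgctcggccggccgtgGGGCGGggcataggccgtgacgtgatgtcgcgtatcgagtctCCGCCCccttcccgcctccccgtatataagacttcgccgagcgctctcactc
AEN: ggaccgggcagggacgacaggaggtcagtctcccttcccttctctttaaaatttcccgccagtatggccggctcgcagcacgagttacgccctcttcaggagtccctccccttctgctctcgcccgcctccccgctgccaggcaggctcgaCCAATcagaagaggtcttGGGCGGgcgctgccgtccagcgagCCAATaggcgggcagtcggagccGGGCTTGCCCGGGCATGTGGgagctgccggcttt
MDM2: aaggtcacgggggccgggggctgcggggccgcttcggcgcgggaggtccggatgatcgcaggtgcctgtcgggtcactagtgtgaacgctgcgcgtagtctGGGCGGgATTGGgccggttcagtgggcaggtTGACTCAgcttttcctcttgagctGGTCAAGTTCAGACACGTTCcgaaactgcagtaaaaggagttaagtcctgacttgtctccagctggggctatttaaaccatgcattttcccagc
CDKN1A: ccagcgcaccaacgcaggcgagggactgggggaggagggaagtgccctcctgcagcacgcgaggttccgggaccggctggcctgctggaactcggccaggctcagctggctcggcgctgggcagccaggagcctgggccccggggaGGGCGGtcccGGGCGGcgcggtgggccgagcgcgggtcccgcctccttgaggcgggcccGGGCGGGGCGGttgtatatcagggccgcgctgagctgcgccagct

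The letters searched, on both strands, were AP-1 (TGACTCA), the GC box (GGGCGG), the TATA box (TATAAA), the CCAAT box (CCAAT), and by name the p53 half-site, the CRE and the serum response element. GADD45B holds a TATA box from 31 to 26 bases before the start and 2 CCAAT boxes. PLK2 holds 1 exact p53 half-site, AGACTTGCTT, and 2 GC boxes. AEN holds an exact p53 half-site, GGGCTTGCCC, 1 GC box and 2 CCAAT boxes, and CDKN1A only GC boxes, 4 in number. Among all 35116 windows of this length, 5.57% hold an exact p53 half-site, 42.6% a GC box, 32% a CCAAT box, 10.7% a TATA box and 4.2% an AP-1 match. A longer p53 site of 2 adjoining half-sites with up to 3 mismatches was added to the search after the first results were known. It matched AEN (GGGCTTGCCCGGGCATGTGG) and the inner MDM2 window (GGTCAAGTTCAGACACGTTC), each with 2 mismatches, against 4.36% of all windows. In all, 3 of the 8 windows of these genes held it, those of AEN and of both inner MDM2 starts, which overlap and share the match. The windows of the 2 outer MDM2 starts held no p53 or AP-1 match. In AEN it overlaps the half-site, and MDM2 also holds an AP-1 match, a GC box and a CCAAT box. No window of these genes held a CRE or serum response element, which 1.65% and 1.16% of all windows hold. Only these 250 bases were searched, so a window without a p53 match does not show that the gene lacks a p53 site. These matches describe letters and were not tested against the ratios.

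Zero on each array was set by housekeeping genes, and the arrays differed in spread. Their medians ran from 0.01 to 0.15, and the robust SD was 0.12 on the self-self array and from 0.44 to 0.91 at the harvests. The description of the 0 min array names treated RNA on both sides, whereas the names of its channels are treated and untreated. Its robust SD was 0.44, and the 2 GADD45B probes stood at 2.76 and 3.0 on it against -0.15 and -0.10 on the self-self array. The 1 h array had the lowest maximum of the 5 harvests, 2.99 against 5.94 to 7.14, and large positive values are missing there. Results are given without these 2 arrays where that changes them. Common reference genes were themselves off zero at 4 harvests, with medians of 0.10, -0.52, -0.37, -0.44 and -0.60 from 0 min to 8 h. Of markers fixed for cell types, 12 of 17 fibroblast genes were negative and 2 positive (median -0.84), and of 11 B lymphocyte genes 3 were positive and 0 negative (median 0.29). Over all genes 37% were positive and 25.3% negative, with a median of 0.14, so the positive share of the B lymphocyte genes (27.3%) was not above it. Ratios carry no levels, so the cell type could not be checked with them, and the part of the fibroblast and reference genes' values in the results was not tested.

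The mean over the 5 harvests shows which of the 6 genes differed between treated and untreated cells across the whole course. GADD45B, PLK2, AEN and MDM2 were positive, with means from 1.06 to 4.53 on the log2 scale over their 6 probes, while CDKN1A and GADD45A lay near zero and did not pass. The test was limma's moderated fit of a mean and a slope on time, adjusted over 13151 probes. Across all probes 61.3% passed, made up of 35% with a positive and 26.3% with a negative mean. Of the 9 probes here, 6 passed with a positive mean and 0 with a negative one. All 6 also lay above the self-self range, the central 99% of that array from -0.32 to 0.47, at each of the 5 harvests, which 10.5% of all probes did. On the other side, 13.1% of all probes and 0 of the 9 lay below it at all 5 harvests. These 6 probes were also the ones above 0 at all 5 harvests, against 36.2% of all probes.

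Harvest by harvest, the self-self range was passed upwards by 6 of the 9 probes at 0 min, where 18.6% of all probes lay above and 20.8% below it. The same 6 did so at 10 min (33.2% of all probes above, 34.1% below) and none of the 9 was below. At 30 min 6 were above (33.3% of all probes) and GADD45A was below (29.9%). At 1 h 6 were above (19.2%) and both CDKN1A probes below (26.4%). At 8 h 8 were above, CDKN1A among them (33.5%), and GADD45A below (29.8%). The 1 h value was lower than both the 30 min and the 8 h value in 6 of the 9 probes, those of GADD45B, PLK2, AEN and CDKN1A, and in 37.9% of all probes. The 8 h value was the highest of the 5 in 6 probes, those of GADD45B, CDKN1A and AEN and 1 of MDM2, and in 31.6% of all probes.

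The counts depend on the spread of the arrays. In all, 36 of the 45 values of these probes lay beyond the range, 32 of them above it, where 55.8% of the values of all probes lay beyond it. With a limit of 1 log2 unit 23 did, against 18.5% of all values. With all arrays scaled to equal spread 12 did, against 2.07% of all values. That scaling took in the self-self array, which had the smallest spread, so the range itself became wider. Those 12 were 8 values of GADD45B and 4 of PLK2, 3 at each harvest except 1 h, and none was of AEN or MDM2.

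GADD45B had the largest ratios of the 6 genes. In harvest order, from 0 min through 10 min, 30 min and 1 h to 8 h, probe 10729 read 3.0, 5.17, 6.47, 1.35 and 6.67, and -0.10 on the self-self array. Probe 2989 read 2.76, 4.45, 5.27, 1.29 and 6.43, and -0.15 on the self-self array. Both probes were lowest at 1 h and highest at 8 h, and no harvest overlapped the self-self range. Their means were 4.53 (SE 0.68, 5 arrays, limma adjusted p = 0.000986) and 4.04 (SE 0.57, 5 arrays, limma adjusted p = 0.000781). Among 13151 probes ordered from the most positive mean, they ranked 5 and 13. The probes differed from each other by at most 1.20, at 30 min.

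GADD45A, the closest relative of GADD45B here, lay near zero throughout. In harvest order its probe read -0.01, -0.01, -0.40, -0.20 and -0.44, and -0.05 on the self-self array. The values at 30 min and 8 h lay just below the self-self range and the other 3 inside it. The mean of -0.21 (SE 0.11, 5 arrays) did not pass (limma adjusted p = 0.132). GADD45B, with probes averaged, exceeded GADD45A on 5 of 5 arrays, by 4.50 on average (SD 2.29) and by 1.52 to 6.99 on single arrays. An exact sign-flip permutation test gave p = 0.0625, two-sided, the smallest that 5 arrays allow, and 0.0781 after adjustment over 15 pairs of genes. On the self-self array the same difference was -0.07.

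GADD45G completes the family and is named outside the rule for named genes, after its values were seen. It was positive at all 5 harvests, from 0.42 at 1 h to 0.80 at 8 h, and its mean of 0.60 (SE 0.11, limma adjusted p = 0.00232) lay between those of GADD45A and GADD45B.

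PLK2 was second in size. Its probe read 2.75, 3.29, 4.29, 1.52 and 4.19 in harvest order, and -0.02 on the self-self array. Again 1 h was lowest, but 30 min and 8 h were alike. The mean was 3.21 (SE 0.36, 5 arrays, limma adjusted p = 0.000499), the 55th most positive of 13151. PLK2 and GADD45B differed by 1.08 (SD 1.07), with GADD45B higher on 4 of 5 arrays and PLK2 higher at 1 h (exact permutation p = 0.188, adjusted 0.217).

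AEN, the exonuclease, read 0.87, 1.56, 2.10, 0.89 and 3.09 over the harvests, and -0.11 on the self-self array. The 0 min and 1 h arrays were low and 8 h was highest. Its mean was 1.70 (SE 0.21, 5 arrays, limma adjusted p = 0.000574). AEN lay below PLK2 on 5 of 5 arrays, by 1.51 on average (SD 0.63, exact permutation p = 0.0625, adjusted 0.0781).

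MDM2, the p53 antagonist, followed another course. Probe 10269 read 1.23, 1.93, 0.59, 0.75 and 1.40 in harvest order. Probe 11040 read 0.66, 1.39, 0.71, 0.80 and 1.75. Both were high at 10 min and 8 h and low at 30 min, where the GADD45B, PLK2 and AEN probes were high. The means were 1.18 (SE 0.20, 5 arrays, limma adjusted p = 0.00164) and 1.06 (SE 0.16, 5 arrays, limma adjusted p = 0.000909). Probe 10269 stood at 0.34 on the self-self array, higher than 97.9% of probes, against 0.01 for probe 11040, and the probes differed by up to 0.57 at the harvests. MDM2 exceeded CDKN1A on 5 of 5 arrays by 1.00 on average (SD 0.32), the narrowest spread of the 15 pairs, and by 0.29 on the self-self array. AEN and MDM2 could not be ordered, as AEN was higher on 3 of 5 arrays by 0.58 on average (SD 0.83, exact permutation p = 0.312, adjusted 0.312).

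At the deposited zero CDKN1A, the best known of these targets, did not pass, and its ratio changed sign between harvests. Probe 4726 read 0.20, 0.26, -0.13, -0.48 and 0.80 in harvest order, and -0.14 on the self-self array. Probe 9933 read 0.13, 0.14, -0.12, -0.46 and 0.83, and -0.10 on the self-self array. The first 3 harvests lay inside the self-self range, 1 h below it and 8 h above it. The 2 probes never differed by more than 0.12, so they gave the same course. Their means were 0.13 (SE 0.17, limma adjusted p = 0.526, 5 arrays) and 0.10 (SE 0.17, limma adjusted p = 0.603, 5 arrays). CDKN1A exceeded GADD45A on 4 of 5 arrays by 0.33 (SD 0.56, exact permutation p = 0.25, adjusted 0.268).

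**Figure D1:**
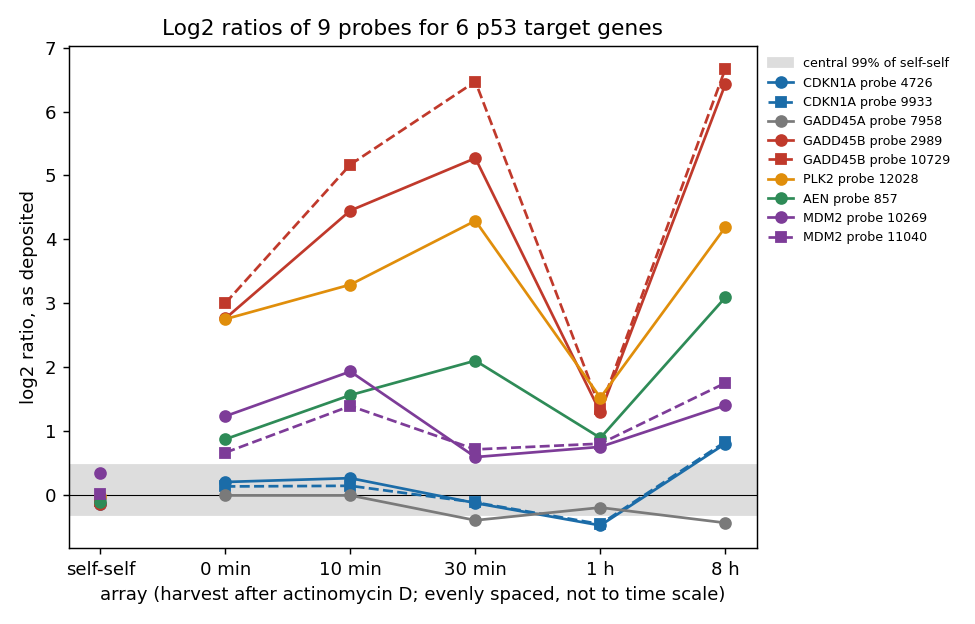
Deposited log2 ratio (vertical axis) of the 9 probes on the self-self array and the 5 harvests (horizontal axis, evenly spaced), 1 line per probe, with the self-self range (central 99%) in grey. GADD45B reaches 6.67 at 8 h and both its probes lie near 1.3 at 1 h, while CDKN1A and GADD45A stay between -0.48 and 0.83.

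In order of the mean with probes averaged, the genes were GADD45B at 4.29, PLK2 at 3.21, AEN at 1.70, MDM2 at 1.12, CDKN1A at 0.12 and GADD45A at -0.21. The neighbours GADD45B and PLK2, AEN and MDM2, and CDKN1A and GADD45A changed places on at least 1 array. The other 12 of 15 pairs kept 1 order on all 5 arrays, each with the same exact permutation p of 0.0625, which cannot pass 0.05. Without the 1 h array, 14 of the 15 pairs kept 1 order, all but AEN and MDM2. The pairs share arrays and genes and are not independent.

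Ranks within an array do not depend on its zero or its spread. GADD45B probe 10729 stood above 99.6%, 99.9%, 100%, 99% and 100% of probes in harvest order. The values of 100% are rounded, as the highest probes read 6.9 at 30 min and 7.14 at 8 h. PLK2 stood above 99.4% to 99.7% at every harvest, 1 h included. AEN lay between 91.9% at 0 min and 98.2% at 8 h. So the low 1 h ratios of these 3 genes went with a high rank on that array. MDM2 differed, with probe 11040 at 88.1%, 93.3%, 78.5%, 93.1% and 92.5% from 0 min to 8 h, lowest at 30 min. CDKN1A moved most in rank, with probe 4726 at 64.4%, 57.7%, 37.1%, 18.5% and 77.8%. GADD45A stayed between 25.6% and 45.7%.

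**Figure D2:**
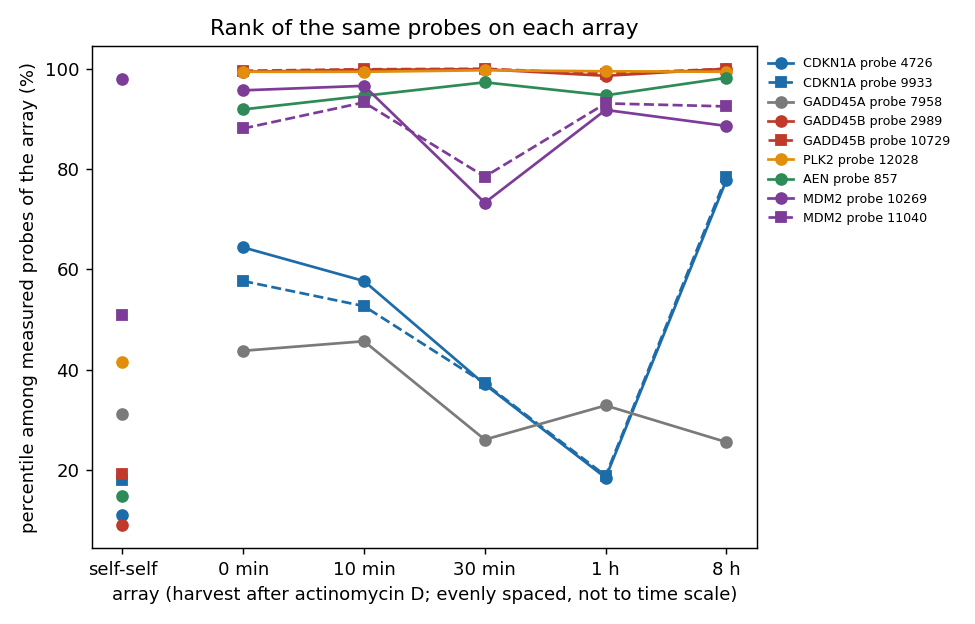
Percentage of an array's measured probes that lie below each of the 9 probes (vertical axis), for the self-self array and the 5 harvests (horizontal axis, evenly spaced), 1 line per probe. GADD45B and PLK2 stay above 98% at all harvests, whereas CDKN1A probe 4726 drops from 64.4% at 0 min to 18.5% at 1 h and is at 77.8% at 8 h.

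The slope over the harvests asks whether the ratios moved after transcription was blocked. None of the 9 probes passed, and neither did any of the 13151 (0%), although 14.2% had an unadjusted p under 0.05. In simulated data the fit called 0% of true slopes of 0.25 in size and 57% of those of 0.5. The simulated slopes sat on few probes drawn from the whole array, so these rates are not those of the 9 probes. Slopes of the size seen here could still be missed. AEN came nearest, with a slope of 0.34 (SE 0.11) per unit of log2(1 + min / 10), an unadjusted p of 0.0163 and a limma adjusted p of 0.212. Without the 1 h array the slope of AEN was 0.37 (SE 0.07, limma adjusted p = 0.015) and that of GADD45B probe 2989 was 0.58 (SE 0.10, limma adjusted p = 0.0116). GADD45B probe 10729 then had 0.54 (SE 0.15, limma adjusted p = 0.0648) and PLK2 0.23 (SE 0.09, limma adjusted p = 0.197). On those 4 arrays 3.87% of all probes passed with a positive slope. The 8 h array bore on these slopes as well. Without it AEN had a slope of 0.09 and GADD45B probes 2989 and 10729 had -0.31 and -0.30, each with a limma adjusted p of 1.

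Steps between single arrays have no test and are set beside the same step over all probes. The 1 h array reached at most 2.99, below the 30 min and 8 h values of GADD45B and PLK2. A step down to 1 h and a step up from it were therefore bound to appear for both. From 0 to 10 min GADD45B gained 1.93, AEN 0.69, MDM2 0.71 and PLK2 0.54, where the middle 90% of probes ran from -0.93 to 0.78. From 10 to 30 min GADD45B gained 1.06 and PLK2 1.00, above the 95th percentile of 0.73. MDM2 stepped by -1.01 by contrast, below the 5th percentile of -0.66, and 1.6% of probes had a lower step. From 30 min to 1 h GADD45B stepped by -4.55, PLK2 by -2.76 and AEN by -1.21, all beyond the 5th percentile of -1.01, while MDM2 stepped by 0.12. From 1 h to 8 h the steps were 5.23, 2.67 and 2.21 for GADD45B, PLK2 and AEN, 1.29 for CDKN1A and 0.80 for MDM2, against a 95th percentile of 1.54.

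Between 0 min and 8 h directly, GADD45B differed by 3.67, AEN by 2.23, PLK2 by 1.44, CDKN1A by 0.65, MDM2 by 0.63 and GADD45A by -0.43. Over all probes the median was 0.04 and the middle 90% ran from -1.01 to 1.45. GADD45B and AEN lay above that range, PLK2 at its upper edge and the others inside it. The robust SD was 0.87 on the 8 h array and 0.44 on the 0 min array. After scaling all arrays to equal spread, GADD45B differed by 1.09 and AEN by 1.31, while PLK2 was at -0.75 and MDM2 at -0.14. With arrays centred on the reference genes the differences were larger instead, at 4.37 for GADD45B, 2.93 for AEN, 2.14 for PLK2, 1.35 for CDKN1A and 1.33 for MDM2, and GADD45A was at 0.27.

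The zero of the arrays bears most on the genes near it. With each array centred on its median, GADD45A had a mean of -0.31 (SE 0.11) and passed (limma adjusted p = 0.0428 over genes), and CDKN1A was at 0.02. With each array centred on the common reference genes, GADD45A was at 0.15 (limma adjusted p = 0.361) and CDKN1A at 0.49 (SE 0.18) passed (limma adjusted p = 0.037). GADD45A therefore has no settled side over the whole course. CDKN1A was positive under all 3 zeros but passed under only 1, and without the 8 h array its probes were at -0.04 and -0.08. Of all probes that passed, 57.1% were positive with the deposited zero, 48.1% after centring on the median and 81.5% after centring on reference genes. GADD45B, PLK2, AEN and MDM2 passed with positive means under all 3 zeros, with MDM2 from 1.02 to 1.49 and GADD45B from 4.19 to 4.65. When the self-self array entered the fit as the level to compare with, none of the 9 probes passed. GADD45B probe 10729 then had a mean of 4.63 and a limma adjusted p of 0.186, and 2 of all probes passed.

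**Figure D3:**
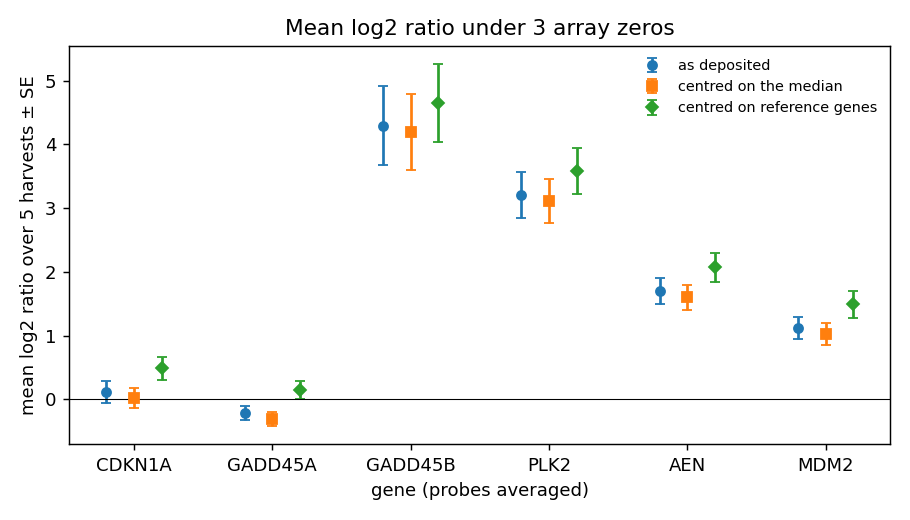
Mean log2 ratio over the 5 harvests (vertical axis; bars are the SE of the limma fit) for the 6 genes with probes averaged (horizontal axis), with the array zero as deposited, centred on the median of all probes and centred on common reference genes. GADD45A is at -0.21, -0.31 and 0.15 in that order, and GADD45B, PLK2, AEN and MDM2 stay at 1.02 or more.

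For each of the 6 genes, the 3 genes with the smallest root mean square difference in log2 ratio over the 5 harvests were taken from the single-gene probes measured on all 6 arrays. Beside GADD45B stood FOS, a subunit of the AP-1 transcription factor, at a difference of 0.61, with values of 3.55, 5.09, 5.33, 1.02 and 5.57. TIPARP, a poly-ADP-ribose polymerase family member, at 0.69, and GEM, a small GTPase, at 0.72, followed. Only 15 of 10882 probes came within 1 of GADD45B. The measure counts the size of the ratios as well as their course, and few genes had ratios as large. Beside PLK2 stood NR1D1, a nuclear receptor of the clock (0.23), MAP3K14, a kinase of NF-kB signalling (0.24), and MIDEAS (0.25). AEN was nearest to ITPKC, a kinase of inositol trisphosphate (0.12), PPRC1, a coactivator (0.16), and ABTB2 (0.16). MDM2 was nearest to ETFRF1 (0.14), POC5, a centriole protein (0.16), and the zinc finger gene ZNF354A (0.17). CDKN1A was nearest to ZC2HC1A (0.08), the ubiquitin ligase UBE3A (0.13) and PWP2 (0.15), and GADD45A to PHC1, a Polycomb protein (0.05), NDUFA10 of complex I (0.05) and the peptidase ERAP1 (0.07). Patterns near zero were common, and 8474 of 10883 probes came within 1 of GADD45A.

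Other genes of the pathway were taken from 5 lists written from general knowledge, with probes averaged, and read against all 8748 genes, of which 37% passed with a positive and 25.3% with a negative mean, around a median of 0.14. Values and signs are those of the deposited zero. Other p53 targets of arrest, repair and feedback had 13 positive and 8 negative of 28 measured genes, with a median of 0.32. The largest were DUSP5, a phosphatase of ERK, at 1.80 (SE 0.23), the polo-like kinase PLK3 at 1.57 (SE 0.29), the antiproliferative gene BTG1 at 1.32 (SE 0.16) and PPM1D, a phosphatase that restrains p53, at 1.30 (SE 0.16). Their limma adjusted p-values were 0.000582, 0.00243, 0.000522 and 0.000535. PPM1D differed in course, at 1.46, 2.04, 1.67, 0.75 and 0.59 from 0 min to 8 h, whereas PLK3 was highest at 8 h with 3.65. CCNG2, an unconventional cyclin just outside the rule and chosen after its values were seen, was as far on the negative side at -1.30 (SE 0.16).

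p53 targets of cell death had 7 positive and 4 negative of 16 measured genes and a median of -0.03. BBC3, which encodes the BH3-only protein PUMA, was at 2.29 (SE 0.31), TNFRSF10B, a TRAIL receptor, at 1.92 (SE 0.22) and PMAIP1, the BH3-only protein NOXA, at 1.24 (SE 0.14). EI24, a protein of the endoplasmic reticulum, was at -1.09 (SE 0.21). Their limma adjusted p-values were 0.000663, 0.000472, 0.000487 and 0.00281. BBC3 read 2.31, 2.57, 3.38, 0.82 and 2.38 from 0 min to 8 h, so that it was highest at 30 min. It was lowest at 1 h, as were TNFRSF10B and PMAIP1.

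Regulators of p53 had 11 positive and 3 negative of 21 measured genes and a median of 0.44. The checkpoint kinase CHEK2 was at 2.88 (SE 0.29), TP53BP2, which binds p53, at 2.80 (SE 0.29), the acetyltransferase KAT5 at 1.70 (SE 0.21) and PPP1R13L, an inhibitor of p53, at 1.64 (SE 0.19). Their limma adjusted p-values were 0.000462, 0.000462, 0.000527 and 0.000487. MDM4, the partner of MDM2 in holding p53 down, did not pass at 0.25 (SE 0.13, limma adjusted p = 0.118). It read -0.06, 0.26, 0.11, 0.65 and 0.28 from 0 min to 8 h, and -0.30 on the self-self array.

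Among cyclins, cyclin-dependent kinases and inhibitors, the proteins around p21, 7 of 26 measured genes were positive and 6 negative, with a median of -0.08. CDK7, the kinase that activates other cyclin-dependent kinases, was at 2.28 (SE 0.25), the transcription factor E2F3 at 1.36 (SE 0.14) and CDK6, a partner of D cyclins, at 1.23 (SE 0.18). Cyclin D1 (CCND1) was the farthest on the negative side at -1.57 (SE 0.14). Their limma adjusted p-values were 0.000462, 0.000462, 0.00101 and 0.000462. CDK2, which p21 inhibits and which is named here after its values were seen, was negative at -0.65 (SE 0.11, limma adjusted p = 0.0019), next to a CDKN1A mean of 0.12.

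Partners and relatives of the GADD45 proteins, PLK2 and AEN had 7 positive and 3 negative of 15 measured genes and a median of 0.25. MAP2K3 and MAP2K6, kinases that activate p38, were at 2.25 (SE 0.27, limma adjusted p = 0.0005) and 1.40 (SE 0.25, limma adjusted p = 0.00225), and PLK3 again belongs here. ISG20, an exonuclease related to AEN, was at 1.20 (SE 0.17, limma adjusted p = 0.000866). The JNK genes MAPK9 and MAPK8, named after their values were seen, were negative at -0.86 (SE 0.12, limma adjusted p = 0.000756) and -0.44 (SE 0.15, limma adjusted p = 0.0308). Also chosen after its values were seen, MAP3K4, the kinase that binds GADD45 proteins, was at -0.46 (SE 0.11, limma adjusted p = 0.0066). PLK1, the mitotic polo-like kinase, chosen in the same way, did not pass at 0.06 (SE 0.16, limma adjusted p = 0.772). PLK1 read -0.26, -0.58 and -0.61 at 0, 10 and 30 min and 0.45 and 1.29 at 1 h and 8 h. PLK4, which drives centriole duplication and is also named outside the rule, was at 0.42 (SE 0.11, limma adjusted p = 0.0139). The polo-like kinases thus ran from 0.06 for PLK1 to 3.21 for PLK2.

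**Figure D4:**
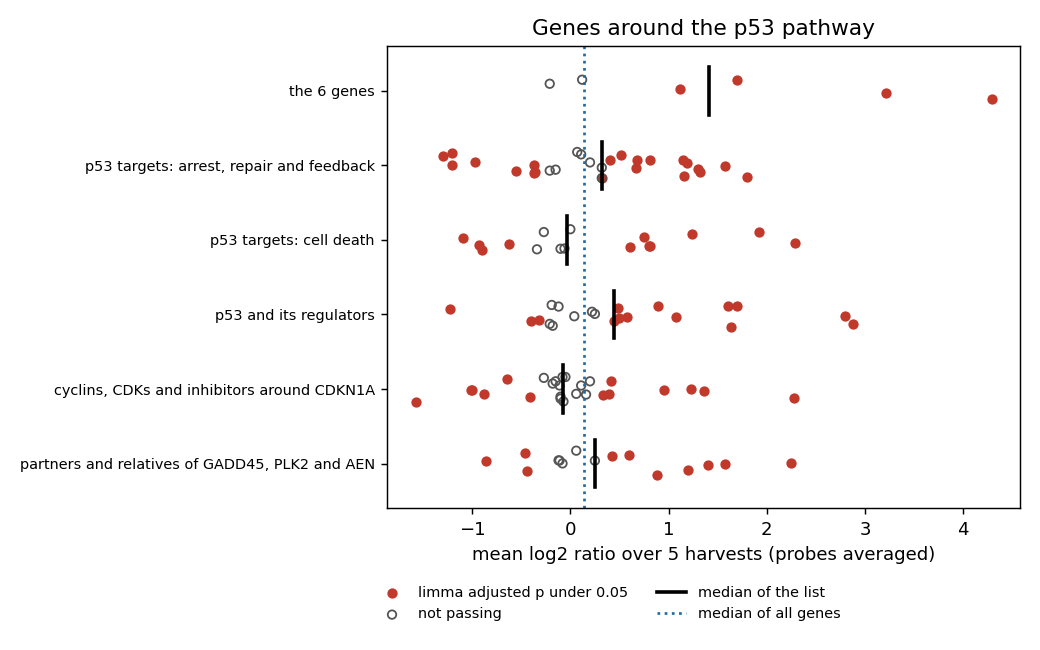
Mean log2 ratio over the 5 harvests (horizontal axis) of each measured gene of the 6 described here and of 5 lists around the p53 pathway (rows), filled where the limma adjusted p is under 0.05; black bars are list medians and the dotted line is the median of all genes, 0.14. The 6 genes have a median of 1.41 and the lists medians from -0.08 to 0.44.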

How the data were processed

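The authors deposited 1 log2 ratio per probe and array for 14080 probes. Per the labels' protocols, spot intensities were averaged after background subtraction, divided by those of a reference, normalised within each slide on housekeeping genes, and ratios of quality under 0.5 discarded. Image software is not given in the sources used here. The log base was read off the table, as powers of 2 of the values fell on a grid of 1 in 10000 (tolerance 0.05 of a step) for at least 99.5% of each array. Entries at an array's most repeated value (333 to 534 per array) were treated as not measured, which touched none of the 9 probes.

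Symbols came from the platform annotation (11304 probes with 1 symbol, 446 with several, 2330 with none), updated through gene IDs, of which 11282 matched. Per probe, a linear model in limma (version 3.58.1, R 4.3.3) held an intercept, the mean, and a term for time, log2(1 + min / 10) centred, over the 5 harvests. It covered 13151 probes with empirical Bayes moderation of variances on 3 residual degrees of freedom, two-sided tests and Benjamini-Hochberg adjustment at 0.05. The code was tested on simulated data first. Genes were fitted again with probes averaged. By rule, named genes were all probes of the 6 genes, up to 4 passing genes per list with the largest mean in size, MDM4, and the 3 nearest genes by pattern. GADD45G, CCNG2, CDK2, MAP3K4, MAPK8, MAPK9, PLK1 and PLK4 were named outside that rule. The genes, lists and tests were chosen with earlier results of these data known. Alternatives were array zero, array spread, repeated values kept, each harvest left out, robust moderation, no time term, time as rank, and the self-self array as the level.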

Additional observations from a re-analysis of the deposited data

Results flagged for a closer look

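At the deposited zero CDKN1A, with its 2 probes averaged, lay beyond the self-self range on opposite sides at different harvests, at -0.47 at 1 h and 0.82 at 8 h. On the 1 h array the common reference genes had a median of -0.44, close to CDKN1A, so its side there depends on the array zero. With 1 array per harvest the difference was not tested. Of all probes, 26.4% were below that range at 1 h, 33.5% were above it at 8 h, and 1.31% were both. With a limit of 1 log2 unit, neither value of CDKN1A lay beyond.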

How the results depend on the processing

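The count of probes that passed for the mean, 8056, was 2 with the self-self array as the level. The slope count of 0 was 1 with arrays centred on their median, 547 centred on reference genes, 38 at equal spread, 21 with robust moderation, and 0 to 574 leaving out 1 harvest, the highest without 1 h. Of 45 values of the 9 probes, 36 lay beyond the self-self range (55.8% of all values) and 23 beyond a limit of 1 (18.5%). At equal spread, where that range was wider, 12 lay beyond it (2.07%). Centring on reference genes turned GADD45A to a mean of 0.15, a slope of 0.02 and an 8 h minus 0 min difference of 0.27, and the slope of MDM2 probe 10269 to 0.07. Equal spread turned the PLK2 slope to -0.08 and the 8 h minus 0 min difference to -0.75 for PLK2 and -0.14 for MDM2. Leaving out 1 harvest, the mean ran from -0.04 to 0.28 for CDKN1A probe 4726 and from -0.08 to 0.25 for probe 9933, lowest without 8 h. Slopes then ran from -0.25 to 0.16 and -0.21 to 0.18 for these, -0.31 to 0.58 and -0.30 to 0.54 for GADD45B probes 2989 and 10729, -0.24 to 0.23 for PLK2, 0.09 to 0.37 for AEN, and -0.30 to 0.05 and -0.03 to 0.20 for MDM2 probes 10269 and 11040. In the lists, centring on reference genes left 4 of 8 negative arrest genes, 1 of 3 negative regulators and 1 of 3 negative partners, and gave 11 positive cyclins and kinases against 7, or 4 with median centring. Leaving out 1 harvest gave 5 to 8 arrest genes, 1 to 2 regulators and 4 to 7 cyclins and kinases on those sides. The cause was not tested. All 6 probes of GADD45B, PLK2, AEN and MDM2 that passed for the mean also passed without any 1 harvest, with limma adjusted p-values up to 0.0115. No paired analysis was possible because each harvest has 1 array, so no replicate number could serve as a block between groups. Genes were compared with each other within arrays.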
